A study of Thermothelomyces thermophilus with 6 samples.

Results

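Of the 9110 genes counted in Myceliophthora thermophila, 91 were abundant and nearly level in all 3 media tested, and these are described here. Members were chosen by their levels in CPM (reads of a gene per 1000000 reads of the library), averaged over the 2 libraries of each medium. A gene was a member if the lowest of its 3 medium means was at least 300 CPM and the highest was at most 1.3 times the lowest. A list of 19 IDs was set aside beforehand, and none of them met both limits. The limits use all 6 libraries, so the levels of the members and their differences between media are descriptions of what was chosen and carry no test.

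The mycelium came from strain ATCC 42464 of this thermophilic filamentous fungus (Thermothelomyces thermophilus), which secretes a wide set of enzymes against plant polysaccharides. All groups shared a preculture of 18 h at 45 °C on 2% glucose in Vogel's salts, after which the mycelium was washed and kept in the test medium for 4 h. The test media were starch (2% per the labels), glucose (concentration not given in the sources used here) and medium without a carbon source, which is the starvation group. Each medium had 2 libraries, and no library from before the move was analysed here. The growth protocol, given alike for all samples, names starch or Avicel as the carbon source after the move, so glucose and no carbon as test media, and their time of 4 h, rest on the titles and source names. The labels do not say whether the 2 libraries came from separate cultures, so their spread may be technical. Library totals were 17726204 to 23635336 reads.

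Every growing cell keeps a set of transcripts for protein synthesis, energy supply, the cytoskeleton and protein turnover, which are often called housekeeping transcripts. Genes of this kind serve as internal references in RT-qPCR, because their level is taken to be independent of the carbon source. Sequencing reads measure a share of the mRNA pool and not an amount per cell. A gene with a constant share is therefore steady relative to the pool, and the pool itself can change in size or makeup.

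All 91 IDs were found in the RefSeq gene table of assembly ASM22609v1, but none of them has a symbol there. Neither that table nor the deposited one pairs these IDs with a product, so the members are given by ID without a role. They made up 24.2% of the 376 genes with at least 300 CPM in every medium. Together they took 7.59% and 7.44% of the reads in the starch libraries, 7.66% and 7.61% in the glucose libraries, and 7.52% and 7.39% in the libraries without carbon. Starch and no carbon overlapped in this share, and both glucose libraries lay just above them. The fewest reads of any member in any library were 5284, at which the 95% counting interval reaches 2.7% to either side, so counting error was small for every member. Such intervals cover counting error only.

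Levels ran over more than a decade of CPM, with most members near the lower end. The mean over the 3 media was 323 CPM for the lowest member, 594 CPM for the median member and 5309 CPM for the highest. There were 26 members with at least 1000 CPM and 35 with under 500 CPM. The medium medians lay close together, at 618 CPM on starch, 617 on glucose and 608 without carbon.

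**Figure D1:**
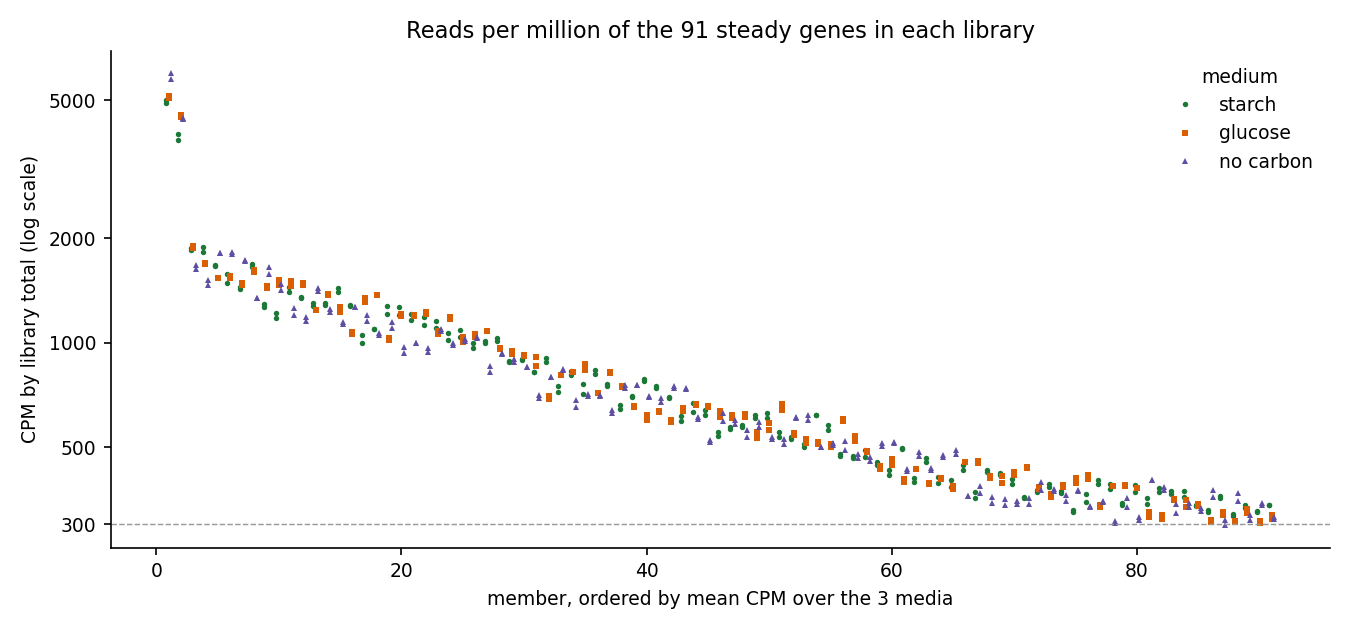
Each of the 91 members is shown by its CPM in 6 libraries on a log scale, ordered from left to right by its mean over the media, with starch as circles, glucose as squares and no carbon as triangles. A pair of members, with means of 5309 and 4283 CPM, stands apart, and the others run from 1803 CPM down to 323 CPM, with the symbols of the media close together at each position.

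In CPM a pair of genes stood well above the rest and together took 12.7% of the members' reads. Mycth_2298136 (1757 bases) had 5008 and 4917 CPM on starch, 5126 and 5068 CPM on glucose, and 5968 and 5767 CPM without carbon. Its starved libraries were the highest and did not overlap those of the fed media, with means of 4962 ± 64.1 CPM on starch, 5097 ± 41.1 on glucose and 5867 ± 143 without carbon (SD, n = 2 each). This held by library totals, whereas TMM-scaled means were 4779 CPM on starch, 5659 on glucose and 5488 without carbon, with glucose highest. Mycth_2133976 (659 bases) had 4003 and 3836 CPM on starch, 4474 and 4521 CPM on glucose, and 4446 and 4418 CPM without carbon. For this gene starch was the low medium, and the glucose libraries lay just above those without carbon. By mean CPM over the media these genes ranked 5 and 10 among all genes, and the next member, Mycth_2314011, ranked 48.

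Mycth_2314011 (644 bases) had 1879 and 1849 CPM on starch, 1878 and 1904 CPM on glucose, and 1675 and 1635 CPM without carbon. Here starch and glucose overlapped and the starved libraries were lower. The highest 10 members by CPM differed in which medium stood lowest by library totals. Starvation was lowest for Mycth_2314011, Mycth_2315711 and Mycth_2305783. Starch was lowest for Mycth_2298136, Mycth_2133976, Mycth_2304568, Mycth_2314852, Mycth_2315436 and Mycth_2308798. Glucose was lowest for Mycth_110821, with 1678 and 1668 CPM on starch, 1538 and 1537 CPM on glucose, and 1810 and 1809 CPM without carbon. The replicates of Mycth_110821 were nearly equal in every medium, and its 3 media did not overlap by library totals, although they spanned only 1.177-fold. With TMM scaling its means were 1611 CPM on starch, 1707 on glucose and 1693 without carbon, so glucose turned from lowest to highest.

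CPM is not corrected for gene length, and levels of different genes were therefore compared as RPKM, which is CPM divided by the gene length in kilobases. The gene length is the one implied by the deposited counts and RPKM. On that scale Mycth_2133976 was the most abundant member, with 5948 ± 179 RPKM on starch, 6825 ± 50.4 RPKM on glucose and 6725 ± 29.4 RPKM without carbon. Mycth_2298136 followed with 2824 ± 36.5 RPKM on starch, 2901 ± 23.4 RPKM on glucose and 3339 ± 81.2 RPKM without carbon. Mycth_2314011 came next with 2894 ± 32.4, 2936 ± 28 and 2570 ± 43.3 RPKM in the same order of media. Means over the media were 3022 RPKM for Mycth_2298136 and 2800 RPKM for Mycth_2314011. The pair that stood apart in CPM therefore did not stand apart together on this scale. The remaining members of the first 10 by RPKM were Mycth_2304568, Mycth_2315711, Mycth_2315781, Mycth_2298252, Mycth_2062887, Mycth_2304829 and Mycth_2297816, with means over the media between 1200 and 1850 RPKM. Of the first 10 by CPM and the first 10 by RPKM, 5 members were common to both lists. The lowest member by RPKM was Mycth_2295647 at 57.1 RPKM, and the median member had 589 RPKM.

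Members were somewhat shorter than other genes of their abundance. Their length ran from 516 bases (Mycth_2033463) to 5857 bases (Mycth_2299402), with a median of 1226 bases. The median was 1353 bases over the 285 other genes at or above 300 CPM and 1541 bases over all genes with a length. No member was as short as the shortest of those 285 genes, at 171 bases. Over all genes with at least 10 CPM on average, length was weakly correlated with the log2 ratio of a fed medium over no carbon. Its Spearman correlation was 0.25 for starch over no carbon and 0.23 for glucose over no carbon. Over the 285 other abundant genes it was 0.20 and 0.12. Among the members these values were -0.03 and -0.10. They are correlations across genes of the same libraries and are given as a description, and the limit of 1.3 narrows the range of ratios among the members.

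The steadiest member was Mycth_2314437 (1169 bases). It had 339 and 341 CPM on starch, 339 and 343 CPM on glucose, and 334 and 328 CPM without carbon. Starch and glucose overlapped for this gene, and the starved libraries lay just below both. Its highest mean was 1.031 times its lowest. The next members in order of this ratio were Mycth_2304388 at 1.037, Mycth_2297204 at 1.044, Mycth_2298018 at 1.049 and Mycth_2062887 at 1.056.

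Mycth_2304388 had 376 and 372 CPM on starch, 385 and 379 CPM on glucose, and 398 and 378 CPM without carbon, so the starved libraries spanned those on glucose. Mycth_2297204 had 1040 and 1085 CPM on starch, 1007 and 1041 CPM on glucose, and 1025 and 1011 CPM without carbon. Its glucose libraries overlapped both other media, and starch stayed above starvation. Mycth_2062887 was the most abundant of these genes, with 1156 and 1100 CPM on starch, 1080 and 1056 CPM on glucose, and 1080 and 1094 CPM without carbon. The other members of the steadiest 10 were Mycth_2307459, Mycth_2302076, Mycth_2316574, Mycth_2304704 and Mycth_2308783, with ratios of 1.060 to 1.074.

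Over all members the ratio of the highest to the lowest medium had a median of 1.19. It was at most 1.1 for 15 members, between 1.1 and 1.2 for 35, and above 1.2 for 41. Taken over the 6 single libraries in place of the 3 means, the ratio ran up to 1.35, and 80 members stayed within 1.3. The other abundant genes had a median ratio of 1.79, with 167 of them between 1.3 and 2, 93 between 2 and 4, and 25 above 4.

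Close to the limit of 1.3, members and excluded genes looked alike. Mycth_2302797 was the last member inside it, with a ratio of 1.297 and means of 753 CPM on starch, 822 on glucose and 634 without carbon. Mycth_62593 was the first gene outside it, with a ratio of 1.301 and means of 1297 CPM on starch, 1323 on glucose and 1017 without carbon. Inside, Mycth_2314934, Mycth_2297816 and Mycth_2315602 had a ratio of 1.295 and Mycth_2145592 one of 1.289. Outside, Mycth_2295112, Mycth_2296536, Mycth_2314963 and Mycth_2088086 had ratios of 1.303 to 1.313. At the limit of 300 CPM, the lowest means of Mycth_2299597, Mycth_2294215 and Mycth_2308929 were 303, 305 and 305 CPM. Mycth_73070 fell just below, with 296 CPM on starch, 304 on glucose and 299 without carbon, and its ratio of 1.027 was smaller than that of any member. Mycth_2084256 and Mycth_2301817 were also level enough but had 285 and 278 CPM without carbon.

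**Figure D2:**
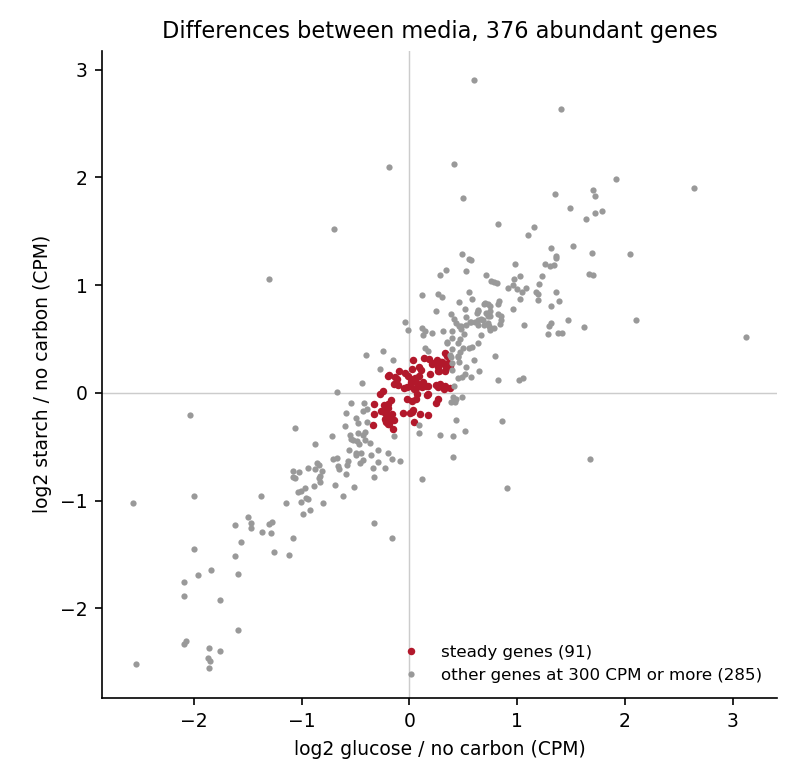
Each point is 1 of the 376 genes with at least 300 CPM in every medium, placed by its log2 ratio of glucose over no carbon (horizontal) and of starch over no carbon (vertical), both in CPM by library totals. The 91 members, in red, form the centre of a cloud that stretches along the diagonal, and the 285 other genes, in grey, lie around them and out to both ends.

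Among all genes, level expression across the media was uncommon at every abundance. Within 1.3-fold lay 7.42% of the 1657 genes with a mean of 10 to 30 CPM, 10.1% of the 3119 genes with 30 to 100 CPM and 15.7% of the 1594 genes with 100 to 300 CPM. The share was 15.1% of 443 genes with 300 to 1000 CPM and 16.5% of 158 genes above that. With TMM scaling the shares of the last 3 classes were 16.2%, 13.5% and 9.49%, so they fell with abundance there but not by library totals. A difference of more than 2-fold was more common in each of these classes, at 43.5% to 64.0% of the genes.

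**Figure D3:**
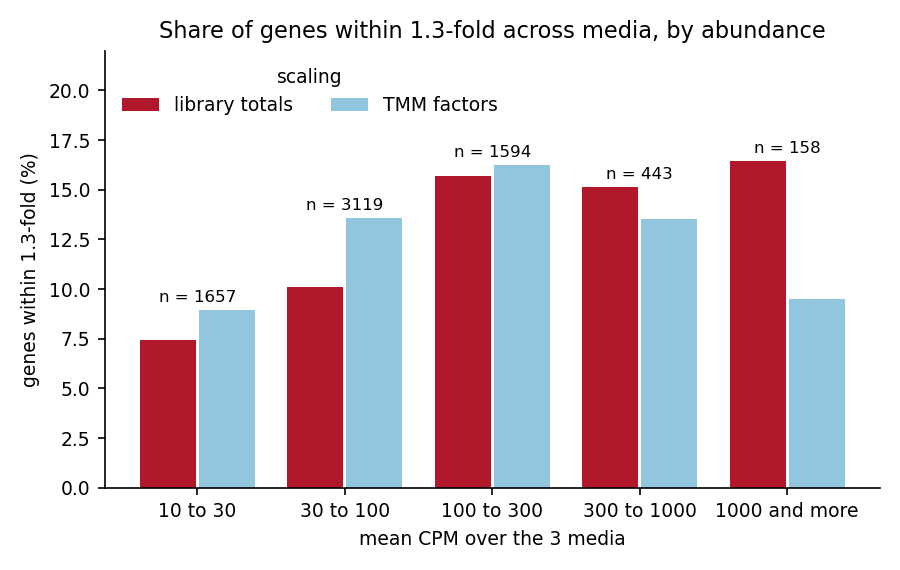
Bars give the percentage of genes whose highest medium mean was at most 1.3 times the lowest, by mean CPM over the 3 media, with CPM by library totals (red) and with CPM scaled by TMM factors (blue), and n is the number of genes in each class. The red bars rise to 15.7% at 100 to 300 CPM and stay near that value, while the blue bars fall from 16.2% there to 9.49% for genes with 1000 CPM and more.

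The limits rest on means, and the spread between replicate libraries was not used by them. The median absolute log2 ratio between the 2 libraries of a medium was 0.0314 on starch, 0.0202 on glucose and 0.0269 without carbon over the members. Over all 3 media it was 0.0248 for the members and 0.0250 for the other abundant genes, so replicate libraries lay about as close for members as for other genes of their abundance. Counting error alone would give 0.0120 for the members. The largest replicate difference of any member was 0.094, for Mycth_2299830 on starch, with 713 and 761 CPM. Next were Mycth_2316112 without carbon, with 343 and 322 CPM, and Mycth_2075489 on glucose, with 912 and 857 CPM. The smallest were those of Mycth_110821, Mycth_2303766 and Mycth_105405, which did not exceed 0.014 in any medium.

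The differences between media were limited to 1.3-fold by the choice of members, and they are given beside this spread as a description. The median absolute log2 ratio of the means was 0.100 for starch over glucose, 0.172 for starch over no carbon and 0.185 for glucose over no carbon. Of the 91 members, 58 differed by less than 1.1-fold between starch and glucose, 36 between starch and no carbon and 34 between glucose and no carbon. The starch libraries lay above both glucose libraries for 36 members and below both for 42. Over all 8718 genes tested these libraries did not overlap for 86.8%, with starch higher for 62.8% and lower for 24.0%. Starch lay above no carbon without overlap for 55 members and below it for 31. Of all genes tested 94.5% did not overlap, 46.2% with starch higher and 48.3% with starch lower. Glucose lay above no carbon without overlap for 49 members and below it for 32. Of all genes tested 95.2% did not overlap, 40.0% with glucose higher and 55.2% with glucose lower. No member overlapped in all 3 comparisons. The matching share over all genes was not counted, but in each single comparison most genes did not overlap. The absence of such members is therefore not read as a trait of the members. The limits used these means, so nothing is read from the counts about the members.

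**Figure D4:**
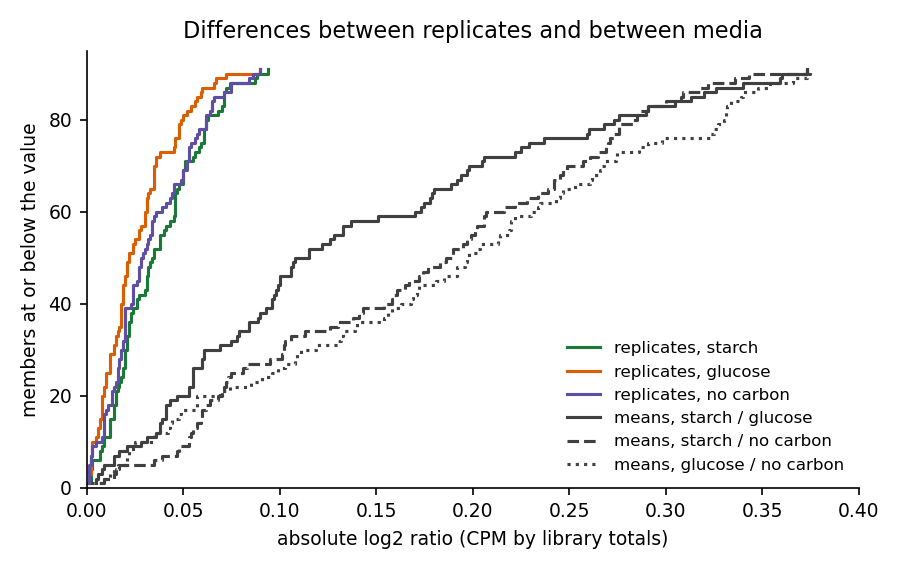
Each line counts the members (vertical) whose absolute log2 ratio is at or below the value on the horizontal axis. The coloured lines, for replicate libraries of 1 medium, reach all 91 members by 0.094, while the dark lines, for the means of starch over glucose, starch over no carbon and glucose over no carbon, rise more slowly, with medians of 0.100, 0.172 and 0.185.

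By library totals the members did not share 1 order of the media. Glucose was the highest medium for 40 members, starch for 28 and no carbon for 23. The lowest medium was starch for 25 members, glucose for 23 and no carbon for 43. The most frequent order was glucose over starch over no carbon, in 27 members, and the other 5 orders held 11 to 16 members each. This spread of orders depended on the scaling. With TMM factors, which are described with the scalings further on, glucose was highest for 77 members, starch for 10 and no carbon for 4, and the lowest medium was starch for 31, glucose for 2 and no carbon for 58.

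Some members show how far the orders differed within the limit. Mycth_2315602 had 1264 and 1205 CPM on starch, 1207 and 1192 CPM on glucose, and 971 and 936 CPM without carbon, so both fed media stood above starvation. Mycth_33514 went the other way, with 402 and 385 CPM on starch, 387 and 378 CPM on glucose, and 478 and 490 CPM without carbon. Mycth_60294 separated starch from glucose, with 904 and 882 CPM on starch, 689 and 704 CPM on glucose, and 796 and 796 CPM without carbon. Mycth_2297816 had starch and glucose in the opposite order, with 1093 and 1095 CPM on starch, 1370 and 1373 CPM on glucose, and 1066 and 1052 CPM without carbon. Of these, Mycth_2315602, Mycth_33514 and Mycth_60294 were picked after their values were seen, as large differences within each order.

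The gene order of the RefSeq table places 2 pairs of members next to each other. Both pairs are given, although neighbours were not among the kinds of gene set for naming beforehand. Mycth_2314933 and its neighbour Mycth_2314934 had opposite orders of the media by library totals. Mycth_2314933 had 781 ± 8.57 CPM on starch, 609 ± 15.6 on glucose and 698 ± 3.39 without carbon, while Mycth_2314934 had 1025 ± 35.7 CPM on starch, 1328 ± 23.6 on glucose and 1179 ± 31.5 without carbon (SD, n = 2 each). The first gene was highest on starch and the second on glucose. With TMM scaling this held, but the orders were no longer fully reversed. The TMM-scaled means were 752 CPM on starch, 676 on glucose and 653 without carbon for Mycth_2314933. For Mycth_2314934 they were 987, 1474 and 1103 CPM. The CPM ratio of the first gene to the second was 0.749 and 0.775 in the starch libraries and 0.461 and 0.456 in the glucose libraries. Without carbon it was 0.583 and 0.602. This ratio is formed within a library and does not depend on scaling.

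The other neighbours were Mycth_2304703 and Mycth_2304704. Their ratio was 3.429 and 3.575 on starch, 3.011 and 3.193 on glucose, and 3.762 and 3.665 without carbon. The annotated spans of both pairs did not overlap. Spans of 4 members, Mycth_105405, Mycth_110717, Mycth_2313899 and Mycth_2314011, overlap that of a neighbouring gene in the RefSeq table, and their counts are uncertain because the strand setting of the counting is not given. These 4 genes and the members at the extremes of length and RPKM were named after their values were seen. Over all 4095 pairs of members, the ratio of one to the other varied across the media by a median of 1.24-fold and by at most 1.66-fold, and 64.0% of the pairs stayed within 1.3-fold.

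Which genes count as steady depended on the scaling. CPM by library totals fixes the sum of all reads, whereas TMM factors are set on the assumption that most genes keep their level. Mean TMM factors were 1.04 for starch, 0.901 for glucose and 1.07 for no carbon. With library totals the median log2 fold change of all genes tested was 0.24 for starch over glucose and -0.27 for glucose over no carbon, and TMM moved these to 0.04 and -0.02. A member level by library totals therefore stood higher on glucose relative to the typical gene. With TMM-scaled CPM, glucose became the highest medium for 77 members. The ratio of highest to lowest stayed within 1.3 for 52 members, while the other 39 went beyond it, all 39 with glucose highest.

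**Figure D5:**
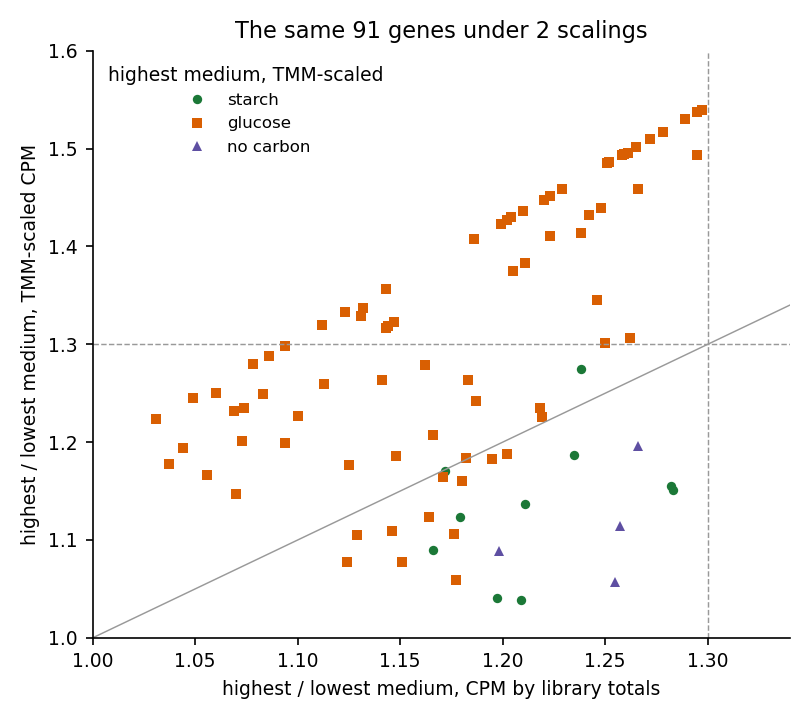
Each point is a member, placed by the ratio of its highest to its lowest medium mean by library totals (horizontal) and with TMM-scaled CPM (vertical), and marked by its highest medium after TMM scaling, with broken lines at 1.3 and a solid line of equal ratios. Of the 91 members, 39 lie above the broken horizontal line, all of them squares for glucose, up to 1.54.

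The steadiest members by library totals were not the steadiest under TMM. Mycth_2314437 had TMM-scaled means of 328 CPM on starch, 379 on glucose and 310 without carbon, a ratio of 1.224. The smallest TMM ratio was that of Mycth_2300901, at 1.039, with TMM-scaled means of 363 CPM on starch, 349 on glucose and 356 without carbon. By library totals this gene had 382 and 372 CPM on starch, 310 and 320 CPM on glucose, and 384 and 377 CPM without carbon, so its glucose libraries were lower there and did not overlap the others. Mycth_2304703 behaved alike, with a ratio of 1.197 by library totals and 1.041 under TMM. Both were named after their values were seen.

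The scalings compared were library totals, TMM, the median-ratio method (RLE) and the upper quartile. Both limits were met under all 4 scalings by 48 members. Among these, Mycth_110821 had ratios of 1.177 by library totals, 1.059 under TMM, 1.078 under RLE and 1.125 under the upper quartile. Mycth_2303766 had 1.151, 1.077, 1.096 and 1.120 in the same order, and Mycth_2316574 had 1.070, 1.147, 1.149 and 1.051. The member with the highest CPM, Mycth_2298136, was also among the 48, with a ratio of 1.182 to 1.230. Mycth_2133976, the highest by RPKM, and Mycth_2314011 were not, with 1.323 and 1.356 under TMM.

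In the edgeR quasi-likelihood fit over all 8718 genes, which uses TMM factors, most members were called different between media at an adjusted p under 0.05 despite their small changes. The median standard error of a member's log2 fold change was 0.025, so differences far below 1.3-fold passed. For starch against no carbon 82 of 91 members were called, 55 higher and 27 lower, where 90.0% of all genes were called (45.3% higher, 44.7% lower). For starch against glucose 80 members were called, 5 higher and 75 lower, where 68.6% of all genes were called (36.1% higher, 32.5% lower). For glucose against no carbon 77 members were called, 74 higher and 3 lower, where 90.5% of all genes were called (44.8% higher, 45.7% lower). The limits used these contrasts and the comparisons share libraries, so nothing is read from these counts about the members. With library totals in place of TMM the split was 49 higher and 30 lower for starch against no carbon, 31 and 35 for starch against glucose, and 43 and 30 for glucose against no carbon. With the upper quartile it was 34 and 36, 9 and 71, and 61 and 21 in the same order. Over all genes tested, library totals gave 3847 higher and 4010 lower, 4810 and 1701, and 3337 and 4618 in that order. The upper quartile gave 3693 and 4165, 3437 and 2619, and 3583 and 4335 over all genes.

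The median log2 fold change of the members in that fit was 0.10 for starch against no carbon, -0.22 for starch against glucose and 0.29 for glucose against no carbon, beside 0.01, 0.04 and -0.02 over all genes tested. The largest fold changes of the members were 0.41, 0.58 and 0.62 in absolute log2 units in the same order. Mycth_2314934 had the largest for starch against glucose, at -0.58 (SE 0.0266), and Mycth_2302797 the largest for glucose against no carbon, at 0.62 (SE 0.0239). By contrast, Mycth_2298136 had -0.20 (SE 0.0234) for starch against no carbon, -0.24 (SE 0.0234) for starch against glucose and 0.04 (SE 0.0234) for glucose against no carbon. Mycth_2300901 was not called in any comparison, with log2 fold changes of 0.03, 0.05 and -0.03 in the same order.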

How the data were processed

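Per the labels' protocols, RNA was extracted with TRIzol, cleaned on columns and made into standard Illumina libraries. For each of 6 libraries the authors deposited raw counts of reads per gene and RPKM, over 9110 genes. Alignment and counting used TopHat2 (2.0.8b) with HTSeq (version 0.5.4p2), per the submitters' processing notes. The sources used here do not state settings, strand option, genome build or annotation. Deposited RPKM implied 1 gene length per gene (100.0% of 8989 whole within 0.001 bases). IDs were matched to RefSeq locus tags (9087 of 9110), which gave symbols, gene order and whether neighbouring spans overlap. No coordinates are printed and no sequences were used.

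Members and lists were chosen with earlier results of these data known. Counts were fitted in R 4.3.3 with edgeR 4.0.16 (filterByExpr, TMM, robust glmQLFit, all libraries in 1 fit without covariates, Benjamini-Hochberg adjustment over 8718 genes). DESeq2 1.42.0 was an alternative. Other summaries used Python 3.11.15 with pandas 2.3.3. CPM is by library total unless TMM is named. At 17726204 reads, 3 reads correspond to 0.169 CPM.

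Genes were named by rule: the 10 highest by CPM, by RPKM and in steadiness, those nearest the limits, and the 3 largest and 3 smallest replicate differences. Others are marked. Lists by role had no annotation text to act on and were not run.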

Additional observations from a re-analysis of the deposited data

How the results depend on the processing

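The number of genes meeting both limits was 91. It was 50 with a limit of 1.2 and 55 with a lowest mean of 500 CPM, both stricter by construction, and 125 with a limit of 1.4 and 135 with a lowest mean of 200 CPM, both looser. It was 68 with TMM, 67 with RLE and 79 with upper-quartile scaling, and 49, 48 and 67 of these were among the 91. With RPKM in place of CPM it was 69, of which 63 were shared. Without single libraries it ran from 89 to 93, with at least 86 shared. With the libraries of 1 replicate number alone, a setting chosen after seeing the data, it was 89 for number 1 and 91 for number 2. Total counts of calls, both directions together, over all genes and over the members, stayed within 1.5 times in each of the alternatives run (DESeq2, other scalings, no filter, 2-group fits and single libraries left out). The split by direction moved further with scaling. With library totals, starch against glucose gave 4810 genes higher and 1701 lower, beside 3150 and 2834 with TMM, and 31 members higher and 35 lower, beside 5 and 75. For glucose against no carbon library totals gave 43 members higher and 30 lower, beside 74 and 3. All genes split there into 3337 higher and 4618 lower, beside 3907 and 3983 with TMM. For starch against no carbon upper-quartile scaling gave 34 members higher and 36 lower, beside 55 and 27. All genes split there into 3693 higher and 4165 lower, beside 3950 and 3896 with TMM. The replicate numbers were not taken as pairs, since deviations of same-numbered libraries correlated at -0.0396 to 0.00539. With the replicate block 82, 83 and 80 members were called for starch against no carbon, starch against glucose and glucose against no carbon, and 7855, 6044 and 7888 genes in all. The median replicate difference of the members was 0.0248 by library totals, 0.0227 with TMM-scaled CPM and 0.0218 with RLE-scaled CPM. No spread of this median was computed. Promoter motifs and protein properties were planned and not run, as no sequence table was used. The counting interval of 2.7% at the fewest reads limits how small a difference a single library can show.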

Other observations

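With TMM-scaled CPM, 19 genes outside the 91 met both limits, and all 19 had their lowest CPM by library totals on glucose. The 3 with the highest mean CPM, named after their values were seen, were Mycth_2297659, Mycth_2311591 and Mycth_2313891. Mycth_2297659 (1421 bases) had 5766 and 5527 CPM on starch, 4977 and 4847 CPM on glucose, and 6952 and 6738 CPM without carbon by library totals, a ratio of 1.394 that became 1.177 under TMM. Mycth_2311591 had 1417 and 1426 CPM on starch, 1032 and 1032 CPM on glucose, and 1172 and 1124 CPM without carbon, with ratios of 1.377 and 1.275. Mycth_2313891 had 1066 and 1043 CPM on starch, 1027 and 1029 CPM on glucose, and 1407 and 1356 CPM without carbon, with ratios of 1.344 and 1.272. Of the 91 members 53.8% met the limits in both scalings, which is 72.1% of the genes that met them under TMM.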
